A study of Homo sapiens with 6 samples.

Results

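The DNA replication machinery comprised 45 genes, chosen by symbol, that encode the origin recognition complex, the licensing loaders, the MCM helicase and its activators, the replicative polymerases, the sliding clamp and its loader, the Okazaki fragment enzymes, the RPA complex and 4 enzymes of deoxynucleotide supply. All 45 were measured among the 16617 genes of the authors' deposited table. The table compares 3 libraries of sgMETTL13 cells, which received a guide RNA against METTL13 and which the labels call METTL13 knockdown, with 3 libraries of sgControl cells, which received a control guide and have the genotype WT in the labels. Both groups are T3M4, an established cell line from a human pancreatic ductal adenocarcinoma, grown in serum-containing medium without any stated drug treatment. The protein METTL13 methylates eEF1A, which brings aminoacyl-tRNAs to the ribosome during elongation.

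A replication origin is prepared in G1 phase, when ORC, CDC6 and CDT1 load the ring-shaped MCM2-7 helicase onto DNA. In S phase the kinase CDC7 and cyclin-dependent kinases activate the helicase by adding CDC45 and the GINS complex, polymerase alpha-primase lays down primers, and polymerases delta and epsilon extend them on the PCNA clamp that RFC loads. Many of these genes are transcribed at the G1/S boundary under E2F transcription factors, so their mRNA level is commonly read as a mark of proliferation. Tumour cells such as pancreatic carcinoma lines often carry high levels of these transcripts.

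The deposited table gives group averages, so no value of a single library could be shown, and no spread within a group. A gene was called when the authors' adjusted p over all genes was under 0.05. The standard error and 95% interval beside a log2 fold change are implied ones, derived from the deposited fold change and p-value, and add nothing to them. The labels do not say whether the knockdown derivatives are a pool or a single clone, or whether libraries of a group came from separate cultures, so the p-values measure the spread between these libraries, which may be technical. METTL13 itself had a log2 fold change of -2.78, per the authors' deposited table (implied standard error 0.114). Average estimated read counts summed to 15247500 in sgMETTL13 and 15240866 in sgControl. The 7 epithelial markers summed to 4643 TPM in sgMETTL13 and 4799 TPM in sgControl, mostly from KRT8, KRT18 and KRT19. Of the 7, MUC1, a mucin of the apical surface, was called lower in the authors' deposited table (41.1 TPM in sgMETTL13, 59.4 TPM in sgControl, log2 fold change -0.46, adjusted p = 0.00546), and the other 6 were not called, with log2 fold changes from -0.11 for EPCAM to 0.05 for KRT19. Its part in the results on replication genes was not tested. The summed average TPM of 5 fibroblast markers was 17.3 in sgMETTL13 and 17.2 in sgControl, most of it COL1A1, and that of 4 endothelial markers was 4.53 in sgMETTL13 and 3.57 in sgControl. The 2 immune markers measured, of 5 listed, summed to 44.6 TPM in sgMETTL13 and 41.5 TPM in sgControl, nearly all CD68, and the 3 acinar markers measured, of 4 listed, to 1.96 TPM in sgMETTL13 and 0.837 TPM in sgControl.

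Fewer transcripts of several replication genes were measured in sgMETTL13, and no member was called higher. By the authors' adjusted p, 5 of 45 members were called lower (11.1%) and 0 higher, where 1.08% of all genes were called lower and 2.73% higher, or 3.8% in either direction. The 5 were MCM10, PRIM1, MCM6, RRM1 and MCM2. The members were chosen with earlier results of these data known, so their share against all genes is a description and not a test. At an unadjusted p under 0.05 in the authors' deposited table, 10 members were lower and 0 higher, against 4.8% and 7.65% of all genes, and the further 5 were MCM3, MCM4, POLD3, POLE and LIG1. Of the 37 members with at least 205 mean reads, the median of all genes, 5 were called lower (13.5%) and 0 higher, against 1.83% and 5.21% of all genes at that abundance.

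Most members had slightly lower values in sgMETTL13. The median log2 fold change of the 45 genes was -0.15 (quartiles -0.24 and -0.07), against 0.00 for all genes and 0.01 for genes with at least the median read count. A total of 39 members had, in the authors' deposited table, a log2 fold change below 0, as did 49.8% of all genes. The share of all genes below 0 differed by measure: the count of members was 43 by the ratio of average reads, against 60.2% of all genes with reads in both groups, 40 after correction for transcript GC content and length, against 54.7% of all genes with an annotation, and 45 by average TPM, against 63.8% of all genes. Average TPM over the 45 genes summed to 1924 in sgMETTL13 and 2146 in sgControl, or 89.7% of the control level. The median log2 ratio of average TPM was -0.22 for the members and -0.07 for all genes with TPM in both groups. It was -0.06 for genes with at least the median read count. Percentages of control TPM or reads, here and by role group, are not corrected for that lower ratio of genes at large. In these bulk libraries fewer cells in S phase and less mRNA per cell cannot be told apart.

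**Figure D1:**
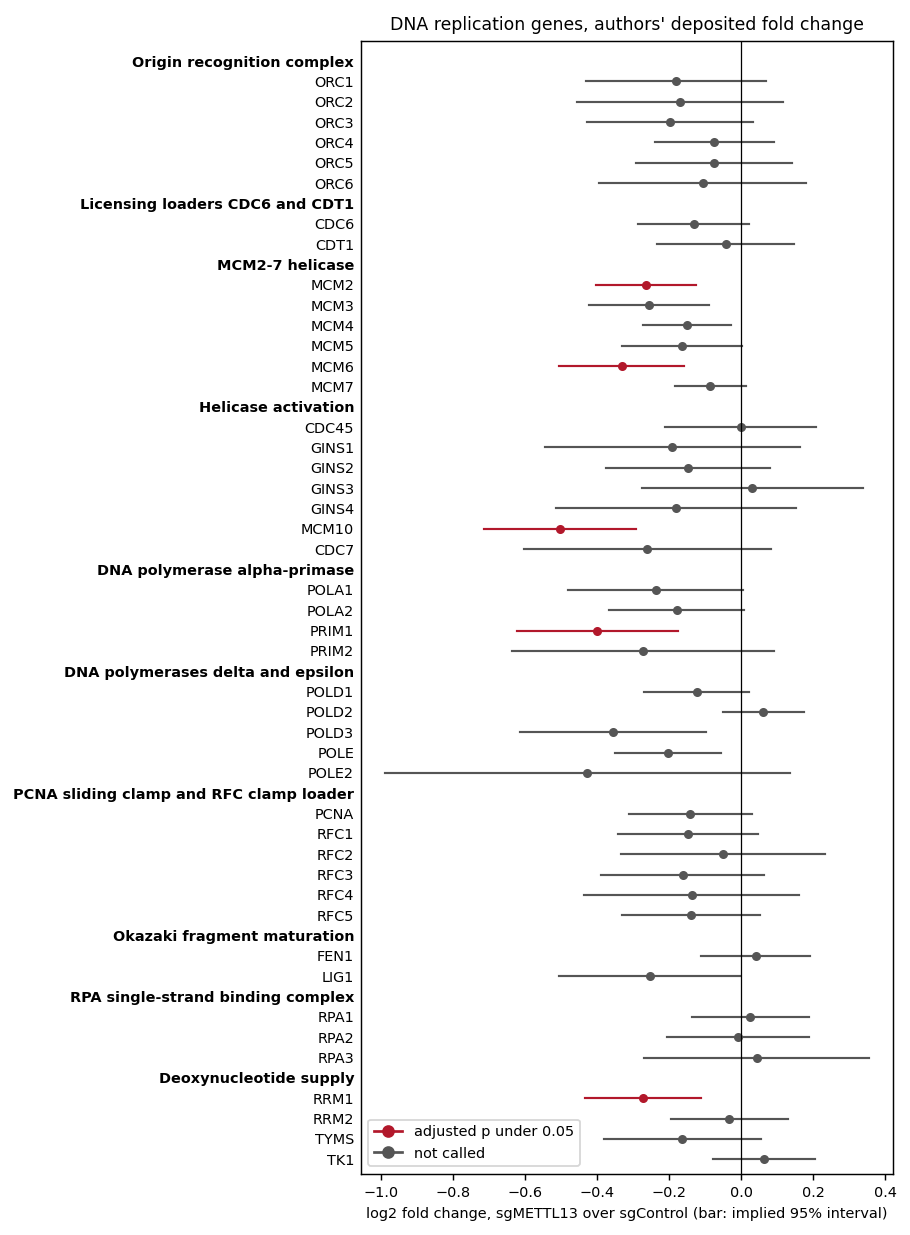
Log2 fold change of sgMETTL13 over sgControl for each of the 45 genes by role, from the authors' deposited table, with the implied 95% interval as a bar; red marks an adjusted p under 0.05. MCM10, PRIM1, MCM6, RRM1 and MCM2 are the red genes, all left of 0, and the values run from -0.50 for MCM10 to 0.06 for TK1.

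**Figure D2:**
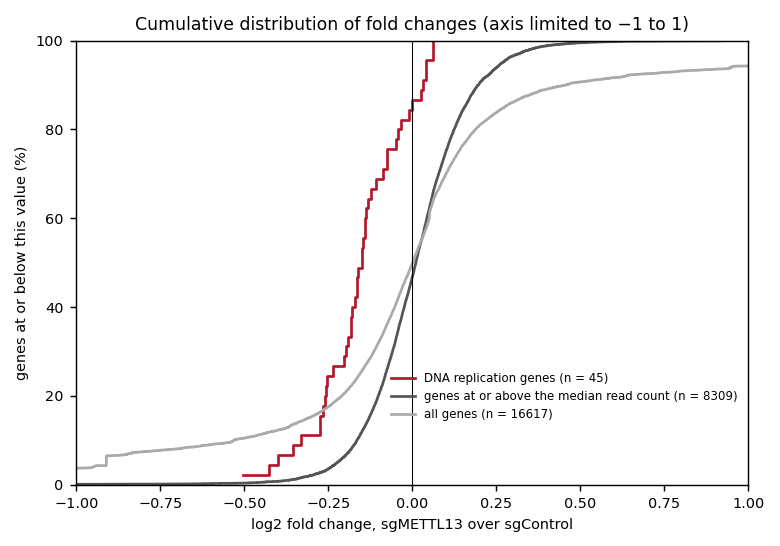
Cumulative share of genes at or below each log2 fold change (sgMETTL13 over sgControl) for the 45 replication genes, for the 8309 genes with at least the median read count, and for all 16617 genes. The replication curve lies left of the others around 0, with a median of -0.15 against 0.01 for the abundant genes.

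The 6 genes of the origin recognition complex, which marks origins and recruits the loaders, were each below the control average and none was called. ORC1, the subunit whose level changes with the cell cycle, averaged 9.83 TPM in sgMETTL13 and 11.7 TPM in sgControl (log2 fold change -0.18 in the authors' deposited table, implied 95% interval -0.43 to 0.07). ORC5 was the most abundant of the 6, with authors' averages of 41.9 TPM in sgMETTL13 and 46.4 TPM in sgControl. Log2 fold changes of the 6 lay between -0.20 for ORC3 and -0.07 for ORC4 in the authors' deposited table. The complex summed to 88.1% of its control TPM.

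Neither loader was called. CDC6, the ATPase that joins ORC at the origin, averaged 41.7 TPM in sgMETTL13 and 48.1 TPM in sgControl (log2 fold change -0.13, adjusted p = 0.556 in the authors' deposited table). For CDT1, which escorts MCM2-7 to the origin, the authors' averages were 41.5 TPM in sgMETTL13 and 45.1 TPM in sgControl, and the log2 fold change of -0.04, per the authors' deposited table, was not called. The implied interval of CDT1, -0.23 to 0.15, did not reach the fall of MCM2, -0.27, the smallest of the called falls. After correction for GC content and length CDT1 was at -0.14 (interval -0.33 to 0.05), which includes a fall of that size.

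All 6 subunits of the MCM2-7 helicase, the ring that unwinds DNA at the fork, had lower averages in sgMETTL13, and MCM6 and MCM2 were called. In the authors' deposited table MCM6 averaged 574 estimated reads and 19.6 TPM in sgMETTL13, against 749 reads and 25.9 TPM in sgControl. Its log2 fold change was -0.33 (0.794-fold) with an implied standard error of 0.089 and an adjusted p of 0.00769 in the authors' deposited table. MCM2 averaged 1442 reads and 53.5 TPM in sgMETTL13, against 1797 reads and 67.6 TPM in sgControl, with a log2 fold change of -0.27 (0.832-fold) and an adjusted p of 0.00838 in the authors' deposited table. MCM6 thus stood at 75.5% and MCM2 at 79.1% of the control TPM. MCM3 was close behind at 29.8 TPM in sgMETTL13 and 37.5 TPM in sgControl, a log2 fold change of -0.26, per the authors' deposited table, but missed the threshold (adjusted p = 0.0588). MCM5 (-0.17), MCM4 (-0.15) and MCM7 (-0.09) were not called in the authors' deposited table. MCM7 stood apart in level, at 325 TPM in sgMETTL13 and 362 TPM in sgControl, while the other 5 subunits averaged 19.6 to 85.2 TPM in sgMETTL13 and 25.9 to 99.5 TPM in sgControl. The MCM7 interval, -0.18 to 0.01, excluded a fall of the size of MCM2. Whether subunits differed from each other was not tested.

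The largest of the 5 called falls was in a helicase activator. MCM10, which is not a subunit of the ring but helps to start unwinding once CDC45 and GINS are bound, averaged 299 reads and 8.45 TPM in sgMETTL13, against 439 reads and 12.6 TPM in sgControl. Its log2 fold change was -0.50 (0.706-fold, implied standard error 0.108, adjusted p = 0.000285) in the authors' deposited table, which is place 54 by size among the 179 called falls of all genes. CDC45, the cofactor that stays with the helicase, had 26.1 TPM in sgMETTL13 and 27.6 TPM in sgControl and a log2 fold change of 0.00, per the authors' deposited table (implied interval -0.21 to 0.21). The 4 GINS genes ranged from -0.19 for GINS1 to 0.03 for GINS3 in the authors' deposited table, with wide intervals at 111 to 286 mean reads in sgMETTL13 and 131 to 328 in sgControl. CDC7, the kinase that triggers activation, was at 5.05 TPM in sgMETTL13 and 6.40 TPM in sgControl (log2 fold change -0.26), and at its depth a change of 0.54 would have been needed for a call. An estimated fall of the size of MCM2 would therefore not have been called for CDC7.

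Polymerase alpha-primase, which makes the RNA-DNA primers of both strands, had the lowest summed level of the 10 role groups relative to control. Its 4 genes summed to 65.5 TPM in sgMETTL13 and 82.9 TPM in sgControl, or 79.0%, against 86.4% to 95.4% in the 9 other groups. A summed TPM depends most on the most abundant gene, here PRIM1, and POLD2 among the polymerases delta and epsilon. By median log2 fold change the groups lay closer: -0.26 here, -0.21 for MCM2-7 and -0.20 for polymerases delta and epsilon. No difference between role groups was tested. PRIM1, the catalytic primase subunit, averaged 299 reads and 27.4 TPM in sgMETTL13, against 408 reads and 37.95 TPM in sgControl. It was the 1 gene of the group that was called, with a log2 fold change of -0.40 (0.758-fold, implied standard error 0.114, adjusted p = 0.0169), per the authors' deposited table. PRIM2, the large primase subunit, had a log2 fold change of -0.27, POLA1, the polymerase, -0.24, and POLA2 -0.18 in the authors' deposited table, none of them called.

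None of the 5 member genes of the polymerases that extend the primers was called. POLE, the catalytic subunit of the leading-strand polymerase, averaged 34.5 TPM in sgMETTL13 and 43.1 TPM in sgControl (log2 fold change -0.20, adjusted p = 0.121 in the authors' deposited table). POLD3, an accessory subunit of polymerase delta, had 9.92 TPM in sgMETTL13 and 13.0 TPM in sgControl, and its log2 fold change of -0.36 was not called (adjusted p = 0.121 in the authors' deposited table). POLE2 had an even lower value, -0.43 in the authors' deposited table, but rested on 40.0 reads in sgMETTL13 and 55.7 in sgControl, where a change of 0.89 would have been needed. POLD2, another delta subunit and the most abundant gene of the set, averaged 361 TPM in sgMETTL13 and 363 TPM in sgControl, with a log2 fold change of 0.06, per the authors' deposited table, that turned to -0.026 after the same correction. The POLD2 interval, -0.05 to 0.17, excluded a fall of the size of MCM2. POLD1, the catalytic delta subunit, had a log2 fold change of -0.12, per the authors' deposited table.

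The 6 clamp and clamp loader genes all had lower averages in sgMETTL13 and none was called. PCNA, the ring that tethers the polymerases, averaged 79.7 TPM in sgMETTL13 and 92.4 TPM in sgControl (log2 fold change -0.14, implied interval -0.31 to 0.03, in the authors' deposited table). The 5 RFC genes, whose products open PCNA, ranged from -0.16 for RFC3 to -0.05 for RFC2 in the authors' deposited table. Of the Okazaki fragment enzymes, LIG1, the ligase that seals nicks, had 13.2 TPM in sgMETTL13 and 16.6 TPM in sgControl with a log2 fold change of -0.25 that was not called (adjusted p = 0.393 in the authors' deposited table). FEN1, the flap nuclease, averaged 74.2 TPM in sgMETTL13 and 75.9 TPM in sgControl with a log2 fold change of 0.04, per the authors' deposited table. The implied interval of FEN1, -0.11 to 0.19, excluded a fall of the size of MCM2.

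The RPA complex, which coats single-stranded DNA, was the group nearest to its control level by average reads, at 97.6% before the authors' scaling. The median log2 ratio of average reads was -0.05 over all genes with reads in both groups. RPA1 averaged 32.5 TPM in sgMETTL13 and 34.0 TPM in sgControl, and RPA2, its partner, averaged 30.9 TPM in sgMETTL13 and 32.8 TPM in sgControl. RPA3, the smallest subunit, averaged 10.7 TPM in sgMETTL13 and 10.9 TPM in sgControl. Log2 fold changes of RPA1, RPA2 and RPA3 were 0.03, -0.01 and 0.04 in the authors' deposited table, and the intervals of RPA1 (-0.14 to 0.19) and RPA2 (-0.20 to 0.19) excluded a fall of the size of MCM2. RPA3, with 160 reads in sgMETTL13 and 161 in sgControl, had an interval too wide to do so (-0.27 to 0.35).

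Among the enzymes that make deoxynucleotides, RRM1 was called and its partner RRM2 was not. Together they form ribonucleotide reductase, RRM1 being the large catalytic subunit and RRM2 the small subunit with the radical. RRM1 averaged 952 reads and 38.01 TPM in sgMETTL13, against 1194 reads and 48.3 TPM in sgControl, a log2 fold change of -0.27 (0.827-fold, implied standard error 0.083, adjusted p = 0.0293), per the authors' deposited table. After correction for GC content and length RRM1 was no longer called (log2 fold change -0.25, adjusted p = 0.0730). RRM2 averaged 32.2 TPM in sgMETTL13 and 34.7 TPM in sgControl (log2 fold change -0.03, implied interval -0.19 to 0.13, in the authors' deposited table). TYMS, the thymidylate synthase, had 31.6 TPM in sgMETTL13 and 36.9 TPM in sgControl (-0.16), and TK1, the thymidine salvage kinase, 106 TPM in sgMETTL13 and 107 TPM in sgControl (0.06), by the authors' deposited table neither called. TK1 turned to -0.063 after that correction. The difference between RRM1 and RRM2 was not tested.

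**Figure D3:**
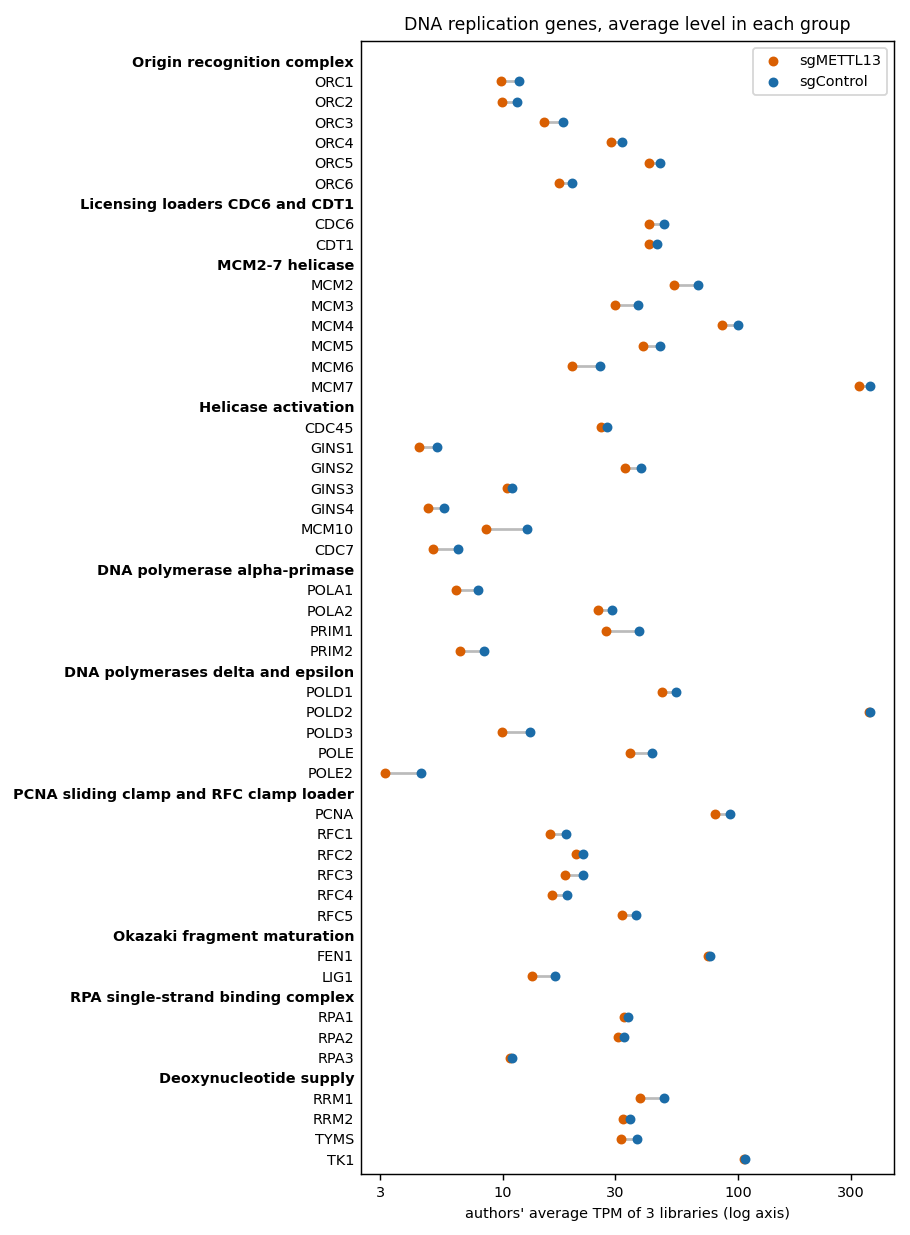
Authors' average TPM of each replication gene in sgMETTL13 (orange) and sgControl (blue) on a log axis, grouped by role; no error is shown because the table holds averages. Each orange point lies left of its blue partner, with the widest gap for MCM10 (8.45 TPM in sgMETTL13, 12.6 TPM in sgControl) and almost none for POLD2 and TK1.

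In all, the intervals of 10 members excluded a fall as large as the MCM2 estimate: ORC4, CDT1, MCM7, CDC45, POLD2, FEN1, RPA1, RPA2, RRM2 and TK1. That estimate has its own implied interval, -0.40 to -0.13, which was not taken into account, and no member was tested against MCM2. After correction for GC content and length this held for 9 of the 10, all but CDT1, against the MCM2 value as deposited or as corrected (-0.31). The corrected intervals of MCM4 and CDC6 also excluded either value, which their deposited intervals did not. Those of RFC1, ORC5, RPA3 and GINS3 excluded the corrected value only. Of the 40 members that were not called, 27 would have needed a change larger than 0.27 at their implied standard error. An estimated fall of the size of MCM2 would thus not have been called in them. The implied standard error was a median of 1.92 times the error from counting reads alone (range 1.66 to 3.47). It was 1.78 times over all genes and 2.05 times over genes with at least the median read count. Across the 45 genes, which share the same libraries, Spearman's rho of the log2 fold change was 0.31 with the mean read count and 0.36 with transcript GC content. The members had a median transcript GC content of 46.3%, against 50.3% for all annotated genes, 46.8% for all called falls and 58.3% for all called rises. Correction for GC content and length left the median of the members at -0.15 and kept MCM10, MCM6, MCM2 and PRIM1 called.

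Reads of some members may be shared. Averages of 10 members, among them MCM4, CDT1, POLA2 and RRM2, were not whole multiples of 1 read over 3 libraries. Such averages arise when a read is split among genes, and 21.4% of all genes had them. None of the 5 called genes was among the 10 members. By GENCODE 29 other genes overlap 23.6% of the exon bases of MCM2, on the opposite strand, and 21.6% of those of PRIM1, on both strands; whether the counting used strand was not given in the sources used here. MCM10 and MCM6 have no such overlap, and RRM1 has 1.51%.

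The promoters of the 5 called genes are shown because E2F factors are the best known regulators of this gene set. Each window runs from 250 bases before to 50 after the RefSeq start site (build GRCh38.p14), 5′ to 3′ on the gene's strand, and capitals mark an E2F word, that is TTNNCGC with each N a C or a G, on either strand, with overlapping matches joined.
MCM6, chr2:135876394-135876693, minus strand: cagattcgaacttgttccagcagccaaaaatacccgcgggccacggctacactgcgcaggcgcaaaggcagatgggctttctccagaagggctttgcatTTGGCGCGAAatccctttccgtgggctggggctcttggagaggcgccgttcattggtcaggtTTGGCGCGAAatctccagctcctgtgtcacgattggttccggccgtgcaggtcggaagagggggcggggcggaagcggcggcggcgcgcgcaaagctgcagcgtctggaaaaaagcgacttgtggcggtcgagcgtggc
MCM2, chr3:127598161-127598460, plus strand: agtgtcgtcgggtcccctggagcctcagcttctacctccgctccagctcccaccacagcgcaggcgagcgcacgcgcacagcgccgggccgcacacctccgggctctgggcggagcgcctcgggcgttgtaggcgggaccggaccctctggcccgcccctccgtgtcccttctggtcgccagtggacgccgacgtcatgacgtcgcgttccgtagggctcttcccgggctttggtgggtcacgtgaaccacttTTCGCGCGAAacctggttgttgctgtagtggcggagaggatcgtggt
PRIM1, chr12:56752274-56752573, minus strand: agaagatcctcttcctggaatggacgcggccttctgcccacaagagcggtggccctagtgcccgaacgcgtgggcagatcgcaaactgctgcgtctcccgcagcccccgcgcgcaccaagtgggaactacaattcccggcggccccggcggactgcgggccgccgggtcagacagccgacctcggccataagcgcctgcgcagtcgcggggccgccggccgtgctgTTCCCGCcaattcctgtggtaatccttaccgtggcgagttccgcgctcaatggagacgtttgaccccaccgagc
RRM1, chr11:4094435-4094734, plus strand: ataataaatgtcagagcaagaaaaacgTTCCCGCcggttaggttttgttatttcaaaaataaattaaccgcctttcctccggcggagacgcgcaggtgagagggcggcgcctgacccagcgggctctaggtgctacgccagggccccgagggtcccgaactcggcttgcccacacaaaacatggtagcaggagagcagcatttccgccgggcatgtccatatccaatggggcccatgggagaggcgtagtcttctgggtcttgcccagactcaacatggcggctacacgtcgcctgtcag
MCM10, chr10:13161308-13161607, plus strand: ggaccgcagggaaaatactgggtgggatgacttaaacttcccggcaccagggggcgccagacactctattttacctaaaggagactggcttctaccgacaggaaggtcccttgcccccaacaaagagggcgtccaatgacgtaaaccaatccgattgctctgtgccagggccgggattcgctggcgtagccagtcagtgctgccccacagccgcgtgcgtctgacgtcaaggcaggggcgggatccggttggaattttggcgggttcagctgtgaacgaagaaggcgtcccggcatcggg
MCM6 held 2 joined E2F sites and MCM2, PRIM1 and RRM1 1 each, while MCM10, the gene with the largest called fall, held none of these words in its window. Only exact words were searched, and near matches were not counted in any set. The MCM10 window holds ttggcgg, which differs from the searched TTGGCGC in its last base. In MCM6 and MCM2 the words overlap head to head on opposite strands. Of the 39 members with a RefSeq window, 29 (74.4%) held an E2F word, against 23.0% of the genes of the table with a window and 26.4% of those with at least the median read count. It was in 4 of the 5 called members and in 25 of the 34 others (73.5%). A CCAAT box, the word CCAAT on either strand, was in 23 of 39 members (59.0%) and 42.8% of all genes with a window, and the word TTTGAA, known as the CHR element of late cell cycle genes, in 1 of 39 (2.56%), in RRM1, and 14.8%. In PRIM1 the E2F word overlaps the CCAAT box by 1 base. Letters in a window show neither binding nor regulation.

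**Figure D4:**
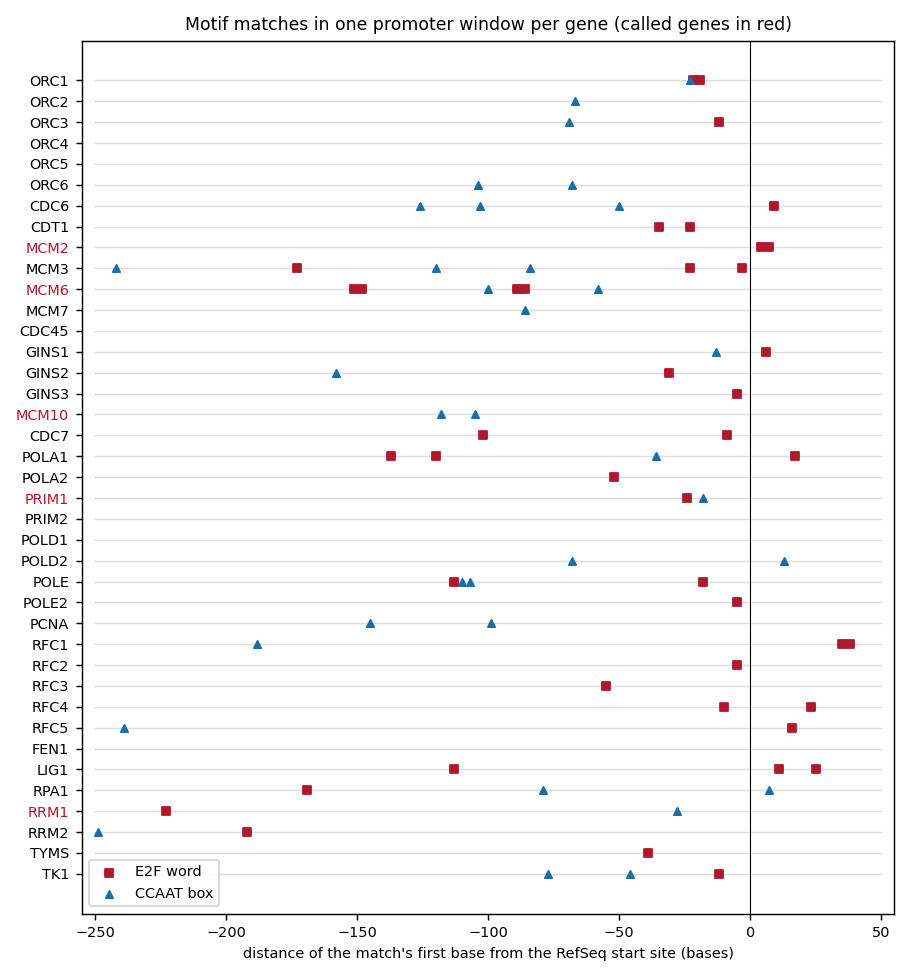
Position of E2F words (red squares) and CCAAT boxes (blue triangles) relative to the RefSeq start site in 1 window per gene (the first by coordinate where a gene has several), for the 39 replication genes with a window; names of called genes are red. MCM6 has 2 pairs of squares, MCM2 has 1 pair just after its start site, and MCM10 has none. The windows drawn for PCNA and MCM7 hold no E2F word, and that for CDC45 no CCAAT box. Other windows of these genes, not drawn, do and are counted in the text.

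Related genes outside the set were described from 8 lists with 165 genes, all measured. By the authors' deposited table, 9 of the 165 were called lower (5.45%) and 2 higher, with a median log2 fold change of -0.07. Of all genes, 1.08% were called lower and 2.73% higher. The lists were also chosen with earlier results of these data known. Of 23 other licensing and firing factors 2 were called lower and 0 higher in the authors' deposited table, DTL (-0.59), the receptor of the ubiquitin ligase that destroys CDT1 in S phase, and SKP2 (-0.40), an F-box protein that also targets cell cycle inhibitors. DTL averaged 9.96 TPM in sgMETTL13 and 15.8 TPM in sgControl. Average reads of SKP2 and of CLSPN, a fork factor, were not whole multiples of 1 read over 3 libraries. GMNN, the inhibitor of CDT1, had a log2 fold change of -0.36 and was not called, per the authors' deposited table.

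Of 27 other replisome and fork factors 3 were called lower and 0 higher in the authors' deposited table. These were PARP1 (-0.41), a sensor of DNA breaks, CLSPN (-0.51), which links stalled forks to the checkpoint kinase, and ATAD5 (-0.61), which unloads PCNA. At an unadjusted p under 0.05, 4 genes of this list were lower and 3 higher in the authors' deposited table, against 4.8% and 7.65% of all genes. The list holds the other subunits of polymerases delta and epsilon, POLD4 (0.27), POLE4 (0.37) and POLE3 (-0.04), none of them called. POLD4 and POLE4 were among the 3 higher. CLSPN was also the 1 call among 15 replication checkpoint genes, whose median was -0.12. Of 17 further genes of deoxynucleotide supply 2 were called lower and 0 higher in the authors' deposited table, with a list median of 0.01, and SAMHD1 (-0.45), which degrades deoxynucleotides, was among those called. RRM1 and SAMHD1, which act in opposite directions on these precursors, were thus both lower in sgMETTL13.

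Of 18 chromatin replication genes 1 was called lower, UHRF1 (-0.52), which guides maintenance methylation at new DNA, and the list median was -0.12 in the authors' deposited table. Of 26 mitotic and G2/M genes 1 was called lower, the kinetochore gene CENPF (-0.31), and the median was -0.06 in the authors' deposited table. The 33 genes of the E2F, RB and G1/S list had 0 called lower and 2 higher in the authors' deposited table, and both encode inhibitors of cyclin-dependent kinases, CDKN1A (0.47) and CDKN2B (0.30). The 2 are 6.06% of the list, near the 5.21% called higher among all genes with at least the median read count. The other inhibitors of this class in the list were not called: CDKN2D (0.41), CDKN1C (0.23), CDKN1B (0.11), CDKN2A (-0.03) and CDKN2C (-0.08). At an unadjusted p under 0.05, 5 genes of the list were lower, CCNE2 (-0.59), E2F8 (-0.57), E2F2 (-0.56), CCNE1 (-0.27) and E2F1 (-0.24). The 3 higher were CDKN1A, CDKN2B and E2F4 (0.15), and the list median was -0.04 in the authors' deposited table. At that p, 4.8% of all genes were lower and 7.65% higher. E2F4, the most abundant E2F gene of the list, averaged 207 TPM in sgMETTL13 and 197 TPM in sgControl. E2F8 averaged 1.86 TPM in sgMETTL13 and 2.86 TPM in sgControl, and E2F2 averaged 1.49 TPM in sgMETTL13 and 2.23 TPM in sgControl. CDKN1A averaged 464 TPM in sgMETTL13 and 354 TPM in sgControl. Of 16 repair, bypass and mitochondrial polymerase genes 0 were called in either direction in the authors' deposited table, with 0 lower and 1 higher at an unadjusted p under 0.05. No difference between a list and the 45 replication genes was tested.

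**Figure D5:**
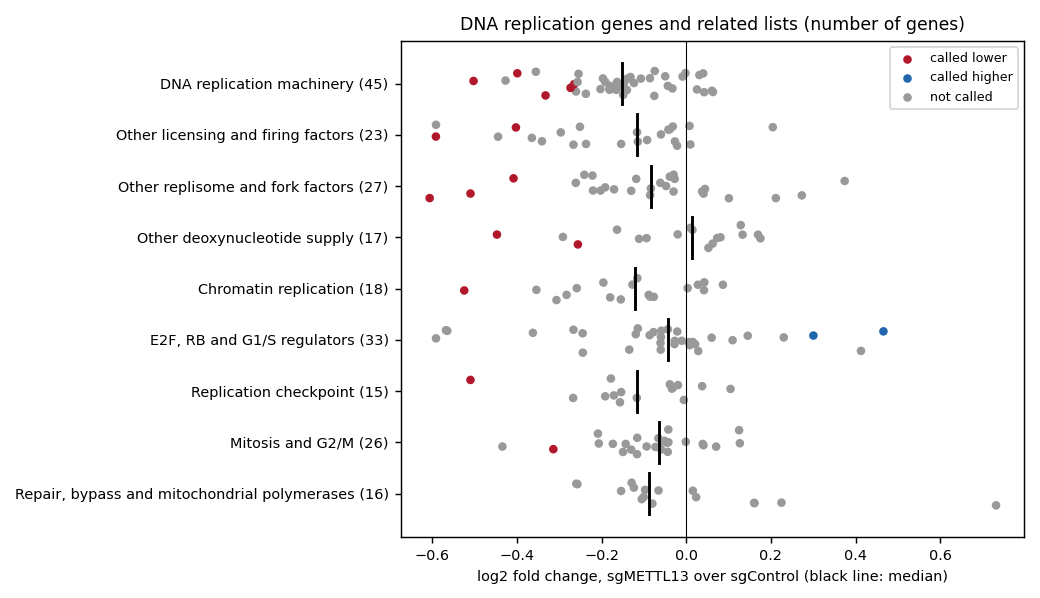
Log2 fold change (sgMETTL13 over sgControl) of each gene in the 45 replication genes and in the 8 related lists, from the authors' deposited table, with the list median as a black line; vertical scatter within a row has no meaning. The replication genes have the lowest median, -0.15, and the 2 blue points are CDKN1A and CDKN2B.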

How the data were processed

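RNA was extracted with TRIzol and libraries were made by a sequencing company, per the labels' protocols. The submitters' processing notes name RSEM 1.2.12, DESeq2 (no version), Bowtie2 2.2.5 and HISAT2 2.0.4 and the builds hg38 and GRCh38.p12, without the role or order of each tool. Per the file headers the authors deposited, for each group, average TPM, average FPKM (not used here) and average estimated counts of reads, and for the comparison a p-value, a q-value and the log2 of KD over WT. The authors' expected counts, as deposited, are averages that need not be whole. The labels tie WT to sgControl and KD to sgMETTL13. The deposited log2 ratio equals that of the average counts plus 0.05, so the authors scaled the groups. The q-value, called the adjusted p, lies within 1.22% of a Benjamini-Hochberg adjustment over 16617 genes.

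Without values per library no count model could be fitted here, so the authors' comparison is the test and the depth of single libraries is unknown. The implied standard error divides the absolute log2 fold change by the normal deviate of the two-sided p. The change needed for a call multiplies it by the quantile of the largest called p (0.00186). Transcript GC content, length, coordinates and exon overlap came from GENCODE 29, matched by Entrez ID for 16211 genes; the correction for GC content and length subtracts a weighted spline fit (4 degrees of freedom each, weights from the implied standard errors). Counting error was taken from average reads times 3 libraries, and an average was called whole within 0.005 of a read on the sum. Promoter windows are from RefSeq. The steps were tested on simulated data. Alternatives were other thresholds, Bonferroni and recomputed adjustments, a filter on reads, centring, that correction, and other ratios. The named genes are METTL13, the 45 members and up to 4 called genes of each related list by smallest adjusted p. GMNN, POLD4, POLE3, POLE4, E2F4, the uncalled inhibitors of cyclin-dependent kinases and the marker genes were named outside this rule, after their values were seen. So were the 5 cyclin E and E2F genes that were lower at an unadjusted p under 0.05. Members and lists were chosen with earlier results of these data known. Python 3.11.15 was used with matplotlib 3.10.9, patsy 1.0.2, numpy 2.4.6, scipy 1.17.1 and pandas 2.3.3. A called gene of the related lists is not reported here by name.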

Additional observations from a re-analysis of the deposited data

How the results depend on the processing

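The table holds averages only, so leaving out a replicate, edgeR and DESeq2 were not run. No paired analysis was possible because the table carries no value per library. Against 5 members at an adjusted p under 0.05, 3 (MCM10, MCM6 and MCM2) passed under 0.01, 6 under 0.1 and 0 by Bonferroni, where MCM10 came nearest (adjusted p = 0.0515). MCM3 was the gene gained at 0.1 and also with the filter on reads (adjusted p = 0.0316) and with centring (adjusted p = 0.0436). After correction for GC content and length 4 were called, and POLD2 (-0.0258), TK1 (-0.0627) and RRM2 (0.00016), none of them called, changed sign. Counts of all genes called lower were 104 at 0.01, 269 at 0.1 and 44 by Bonferroni, against 179, and counts called higher were 136 by Bonferroni and 258 after that correction, against 453. Of the related genes 4 were lower and 1 higher by Bonferroni, and 5 were higher at 0.1 and 4 with the filter on reads, against 9 and 2. The median of the members lay between -0.22 (ratio of average TPM) and -0.15 in every setting run. By summed reads in place of TPM, polymerases delta and epsilon stood at 92.9% of control, against 95.3%, and the 9 other role groups differed by less than their counting interval. Low read counts limit GINS1, GINS4, CDC7, PRIM2 and POLE2 most.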
